A study of Mus musculus with 2 samples.

Results

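The neuronal bHLH and Id factors described here are 10 genes chosen by symbol from the 55536 genes of the annotation: Neurod1, Neurod2 and Neurod6, then Bhlhe22, Bhlhe40 and Bhlhe41, then Tcf4, and last Id2, Id3 and Id4. All 10 were found in the tables of both libraries. The sequenced material was total RNA of the cerebral cortex, left side, from B6CASTF1/J males aged 14 days, the first-generation hybrid of C57BL/6 and CAST. The 2 libraries, replicates 1 and 2, form 1 group and share strain, sex, age, an input of 300 ng of RNA and added ERCC spike-ins, which are synthetic RNAs of known amount. The labels give each library its own biosample but 1 donor entry, and they mention 3 males but leave unsaid whether these were pooled. The spread between the libraries may therefore be technical, and no p-value is given, since the smallest that an exact two-sided sign-flip test could reach here is p = 0.5.

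The libraries held 28377847 and 30982776 expected counts, the estimated reads assigned to each entry. Levels are given in TPM, a share of all transcripts in a library that takes transcript length into account, so that genes can be set side by side. Markers of the labelled tissue were present: the 6 excitatory neuron markers summed to 2561 and 3196 TPM, and all 7 inhibitory neuron markers reached 1 TPM or more in both libraries. The libraries also differed in markers of other regions. All 6 markers of striatal projection neurons, which lie beneath the cortex, were lower in replicate 2, with summed levels of 411.8 and 89.1 TPM. The 4 choroid plexus markers summed to 32.1 and 121.2 TPM, mostly in Ttr. Differences of the members between the libraries are set beside these lists below, and the part of tissue makeup in them was not tested. In bulk tissue, fewer cells of a type and less RNA per cell cannot be told apart.

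Factors of the bHLH class bind DNA as pairs. A basic stretch contacts a short motif called the E-box (CANNTG), and the helix-loop-helix stretch joins the partners. Tissue-restricted members such as the NeuroD factors usually pair with broadly expressed E proteins, of which Tcf4 is one. Id proteins carry the helix-loop-helix but lack the basic stretch, so an E protein bound by an Id protein cannot bind DNA. Bhlhe22, Bhlhe40 and Bhlhe41 belong to bHLH families that mostly repress transcription.

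Genes of one family resemble each other in coding sequence, which matters for whether reads can be assigned to the right gene. The following windows are ungapped stretches of 120 coding bases, chosen for likeness from 1 GENCODE M21 transcript per gene (mm10). Among stretches that start at a codon boundary, they had the highest summed likeness to the first gene of their family. They are written 5′ to 3′, and have in capitals the bases that differ from the first gene of each family. For the NeuroD family the windows span coding bases 397 to 516 of Neurod2, 313 to 432 of Neurod6 and 334 to 453 of Neurod1.

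Neurod2: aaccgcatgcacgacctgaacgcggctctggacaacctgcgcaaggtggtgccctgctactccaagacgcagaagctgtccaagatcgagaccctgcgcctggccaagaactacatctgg
Neurod6: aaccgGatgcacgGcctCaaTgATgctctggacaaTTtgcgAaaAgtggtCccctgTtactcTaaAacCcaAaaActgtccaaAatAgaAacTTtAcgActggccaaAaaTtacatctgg
Neurod1: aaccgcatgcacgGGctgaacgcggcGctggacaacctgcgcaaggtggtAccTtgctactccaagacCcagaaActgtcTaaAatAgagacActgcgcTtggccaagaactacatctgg

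Neurod1 matched Neurod2 at 108 of the 120 bases (90%), and Neurod6 matched it at 94 (78.3%). The windows of Bhlhe40 and Bhlhe41 span coding bases 166 to 285 and 142 to 261.

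Bhlhe40: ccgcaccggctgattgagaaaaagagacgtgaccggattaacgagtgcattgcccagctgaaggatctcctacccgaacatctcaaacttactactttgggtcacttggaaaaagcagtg
Bhlhe41: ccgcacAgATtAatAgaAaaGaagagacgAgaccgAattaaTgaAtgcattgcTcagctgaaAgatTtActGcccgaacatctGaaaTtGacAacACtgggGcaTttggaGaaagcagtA

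These windows also shared 94 of 120 bases, with the differences spread along their length. For the Id genes the windows span coding bases 109 to 228 of Id2, 124 to 243 of Id3 and 196 to 315 of Id4.

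Id2: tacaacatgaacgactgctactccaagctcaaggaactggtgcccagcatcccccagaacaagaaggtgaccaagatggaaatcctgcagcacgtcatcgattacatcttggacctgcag
Id3: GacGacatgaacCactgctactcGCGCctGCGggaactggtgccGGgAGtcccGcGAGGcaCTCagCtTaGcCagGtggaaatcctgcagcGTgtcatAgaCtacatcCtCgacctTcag
Id4: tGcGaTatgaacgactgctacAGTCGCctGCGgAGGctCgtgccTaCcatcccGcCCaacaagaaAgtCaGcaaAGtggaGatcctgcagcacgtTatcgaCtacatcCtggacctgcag

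Id3 matched Id2 at 86 bases (71.7%) and Id4 matched it at 90 (75%). The longest run of coding bases that any within-family pair had in common was 25 bases, between Neurod2 and Neurod1, and the longest between Id genes was 15 bases. Over the whole of those transcripts, no stretch of 31 bases was shared within any family pair. Whether reads of 1 gene could match another with mismatches was not examined.

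All 10 members had 1 TPM or more in both libraries, as did 58.7% of the 22015 nuclear protein-coding genes. Tcf4 stood highest of the members at 182.9 ± 25.0 TPM (SD, n = 2), and Id2 followed at 75.7 ± 5.56 TPM. Bhlhe40 (29.9 ± 7.45 TPM), Bhlhe22 (27.8 ± 3.14 TPM), Neurod2 (27.7 ± 4.06 TPM) and Neurod6 (23.7 ± 5.17 TPM) formed a middle range in which each neighbouring pair overlapped between libraries. Id3 (15.6 ± 2.65 TPM) and Id4 (13.5 ± 2.95 TPM) also overlapped each other. Neurod1 (9.34 ± 1.84 TPM) and Bhlhe41 (6.32 ± 0.940 TPM) were lowest, and their libraries did not overlap with those of their neighbours in the order. Of the protein-coding genes detected, 3.38% in replicate 1 and 2.51% in replicate 2 stood above Tcf4, against 71.5% and 75.8% above Bhlhe41.

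**Figure D1:**
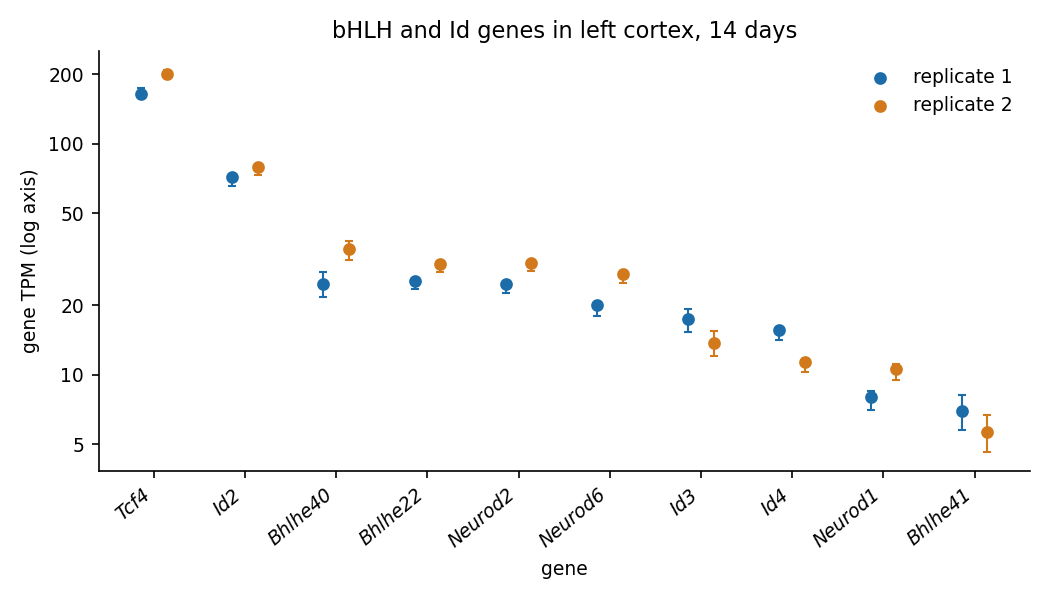
Level of each member in TPM on a log axis, 1 dot per library (replicates 1 and 2), with bars for the interval deposited around the posterior mean TPM of that library. Tcf4 lies highest at 165.2 and 200.6 TPM, and Bhlhe41 lowest at 6.98 and 5.65 TPM.

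The NeuroD factors drive and maintain the differentiation of excitatory neurons, and Neurod2 and Neurod6 mark cortical excitatory neurons after they leave the cell cycle. Neurod2 (ENSMUSG00000038255.6, chr11:98325415-98329648, minus strand, mm10) stood at 24.8 TPM in replicate 1 and 30.5 TPM in replicate 2. Neurod6 (ENSMUSG00000037984.9, chr6:55677822-55681263, minus strand) stood at 20.1 and 27.4 TPM. Neurod1 (ENSMUSG00000034701.9, chr2:79452521-79456751, minus strand), which acts earlier in many neurons and in pancreatic islets, stood at 8.04 and 10.6 TPM. All 3 were higher in replicate 2, and for none did the values of the 2 libraries coincide within counting error. The log2 difference of CPM, the counts scaled to library size, replicate 2 minus replicate 1, was 0.40 for Neurod1, with an exact 95% counting interval of 0.21 to 0.59. It was 0.30 for Neurod2 (0.20 to 0.40) and 0.44 for Neurod6 (0.31 to 0.58). Such intervals cover counting error only, so they say nothing about the spread between animals.

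The makeup of the NeuroD trio moved little while its sum differed. The summed level was 52.9 TPM in replicate 1 and 68.5 TPM in replicate 2. Neurod2 supplied 46.9% and 44.6% of it, Neurod6 supplied 37.9% and 39.9%, and Neurod1 supplied 15.2% and 15.5%. On the log2 scale the level ratio of Neurod1 to Neurod6 was -1.31 in replicate 1 and -1.35 in replicate 2, a mean of -1.33 ± 0.03. Neurod2 exceeded Neurod6 by 0.31 and 0.16 (mean 0.23 ± 0.10), so the gap between them was small and varied more between libraries. The 6 excitatory neuron markers were all higher in replicate 2 too, with a median difference of 0.36 on the log2 scale, and so were the 4 upper layer markers (median 0.36). The 5 deep layer markers had a median of -0.86, with 4 lower and Fezf2 higher (0.17). Of the 7 inhibitory neuron markers 5 were lower (median -0.33), with summed levels of 511.7 and 406.0 TPM. The other inhibitory markers, Vip (0.72) and Pvalb (0.60), were higher. All 6 striatal markers were lower, with a median of -2.44. How far striatal cells carried the deep layer and inhibitory values was not tested, so these lists need not stand for cortical cells alone. The part of these cell classes in the NeuroD differences was not tested.

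Neurod1 is also a gene of cerebellar and dentate granule cells. No cerebellar granule cell marker of the 4 listed reached 1 TPM, and their sum was 0.44 TPM in replicate 1 and 1.59 TPM in replicate 2. The 3 dentate markers summed to 4.00 and 4.49 TPM, mostly in Prox1. Neurod1 overlaps the span of Cerkl on the same strand, a gene with 37.2 and 21.2 counts against 401.8 and 567.8 for Neurod1.

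Each NeuroD gene has 1 annotated transcript, so no isoform question arises for them. The promoter of Neurod6 is shown since it overlaps no GENCODE exon of its own gene and carries E-boxes, the motif that bHLH pairs bind. It spans the 250 bases before the RefSeq start (chr6:55681264-55681513, minus strand, GRCm38.p6), is written along the gene, and has its E-boxes in capitals.

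Neurod6: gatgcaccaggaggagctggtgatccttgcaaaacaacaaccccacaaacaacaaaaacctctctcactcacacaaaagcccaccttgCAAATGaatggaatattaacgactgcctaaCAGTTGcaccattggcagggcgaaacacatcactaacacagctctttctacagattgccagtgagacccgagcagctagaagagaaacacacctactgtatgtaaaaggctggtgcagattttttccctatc

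Its E-boxes read CAAATG and CAGTTG, and begin 162 and 132 bases before the start. A promoter was found for 7 members in the RefSeq table, in which Tcf4 was not looked up. The other members found in it with an E-box were Neurod1 with 1, Neurod2 with 3, Bhlhe41 with 3 and Id2 with 1. Id3 and Id4 had none. All 250 bases of the Id3 window lie in annotated exons of Id3, so it is not sequence upstream of the gene. Such exons also cover 161 bases of the Id2 window, 138 of Bhlhe41, 115 of Neurod1 and 3 of Neurod2. Of 32851 promoters of the same length, 66.2% held at least 1 E-box, so the presence of the motif in 5 of the 7 is close to the common case. Narrower forms were searched as well, each on both strands and each a kind of E-box. The class-B form CACGTG, which Bhlhe40 and Bhlhe41 bind, was found once, in Bhlhe41, and in 6.02% of all promoters. The form CAGATG or CATCTG was found once, in Neurod2, and in 14.4% of all promoters. CAGCTG was found once, in Id2, and in 13.0% of all promoters. The cyclic AMP response element TGACGTCA was in none of the 7 and in 1.55% of all. The promoter of Id4 (chr13:48260866-48261115, plus strand, GRCm38.p6) is given for contrast, as the other one that overlaps no exon of its own gene and one in which these letters do not occur.

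Id4: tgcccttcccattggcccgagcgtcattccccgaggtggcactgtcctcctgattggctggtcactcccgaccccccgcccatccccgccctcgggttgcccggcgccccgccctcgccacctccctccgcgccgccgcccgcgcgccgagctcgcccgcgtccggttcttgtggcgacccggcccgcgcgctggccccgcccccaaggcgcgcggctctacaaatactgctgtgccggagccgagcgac

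A match is a description of letters and not of binding.

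Bhlhe22 is a repressor that shapes the identity and wiring of cortical projection neurons. Bhlhe22 (ENSMUSG00000025128.7, chr3:18054174-18057517, plus strand) stood at 25.6 TPM in replicate 1 and 30.1 TPM in replicate 2, with a log2 difference of 0.23 (counting interval 0.13 to 0.32). It has 1 annotated transcript and overlaps no other gene. Its level lay beside that of Neurod2 in both libraries, with Bhlhe22 the higher in replicate 1 and Neurod2 the higher in replicate 2.

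Bhlhe40 and Bhlhe41 are closely related repressors tied to the circadian clock, and Bhlhe40 is also induced by stimuli such as neuronal activity. Bhlhe40 (ENSMUSG00000030103.11, chr6:108660629-108666925, plus strand) stood at 24.7 TPM in replicate 1 and 35.2 TPM in replicate 2. Bhlhe41 (ENSMUSG00000030256.11, chr6:145858243-145865558, minus strand) stood at 6.98 and 5.65 TPM. The pair thus moved in opposite directions. Bhlhe40 was 1.48-fold higher in replicate 2 (log2 difference 0.57, counting interval 0.46 to 0.67), the largest difference of any member. Bhlhe41 was 1.26-fold higher in replicate 1 (log2 difference -0.33, interval -0.51 to -0.15). The level of Bhlhe40 was 3.50 times that of Bhlhe41 in replicate 1 and 6.14 times in replicate 2, a mean log2 ratio of 2.21 ± 0.57 that had the largest SD of the 11 gene pairs compared.

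Activity-induced genes also differed between the libraries. The list of Fos, Arc, Egr1, Npas4, Nr4a1 and Junb had summed levels of 141.2 and 241.3 TPM and a median difference in CPM of 0.74 on the log2 scale. Arc had the largest difference of the list (1.26) and Npas4, itself a bHLH factor, the smallest (0.07, counting interval -0.16 to 0.29), with levels of 4.93 and 4.85 TPM. The part of neuronal activity in the Bhlhe40 difference was not tested.

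Isoforms split Bhlhe40 and Bhlhe41 unevenly. The transcript Bhlhe40-201, with a complete coding sequence of 1233 bases, held 77.0% of the gene's TPM in replicate 1 and 80.9% in replicate 2. The second transcript table, made directly from the reads, put it at 73.9% and 72.8%. Bhlhe40-202, which has 396 coding bases, held 10.1% and 12.9% in the first table, on 17.9 and 34.8 expected counts. The second table put it at 18.7% and 15.2%, the other direction between the libraries. Transcripts annotated as retained introns held 12.9% and 6.22% of Bhlhe40 in the first table but 7.41% and 12.1% in the second, so the direction between the libraries turned with the table. Of these transcripts Bhlhe40-203 had 10.6 and 3.97 counts and Bhlhe40-204 had 52.4 and 74.5 in the first table. Bhlhe41-201, with 1230 coding bases, held 66.7% and 65.5% of its gene by TPM, and Bhlhe41-202, with 393 coding bases, held 23.7% and 27.7%. By expected counts Bhlhe41-201 had 533.2 and 453.0 and Bhlhe41-202 only 20.3 and 20.4, so the short transcript's share of TPM rests on about 20 reads divided by a short length.

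**Figure D2:**
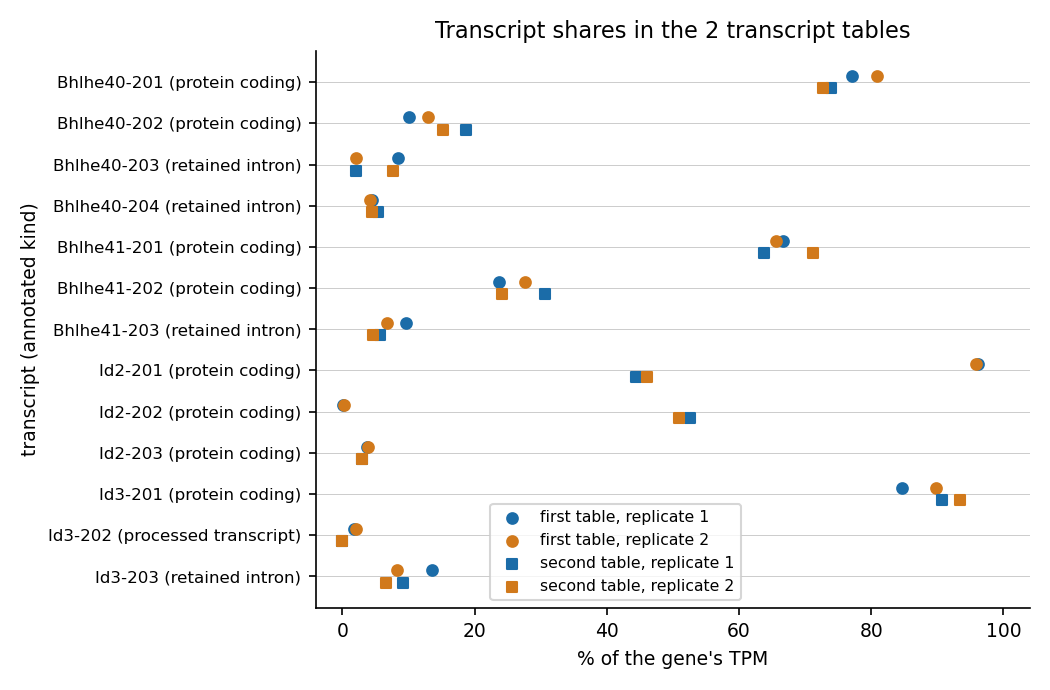
Percent of the gene's TPM in each annotated transcript of Bhlhe40, Bhlhe41, Id2 and Id3, with circles for the first transcript table, squares for the second and colours for replicates 1 and 2. Circles and squares lie near each other for most transcripts, but Id2-201 lies at 96.1% and 95.9% in the first table against 44.4% and 46.0% in the second.

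Tcf4 is an E protein with known roles in cortical development, and it can partner NeuroD factors. Tcf4 (ENSMUSG00000053477.17) stood at 165.2 TPM in replicate 1 and 200.6 TPM in replicate 2, with 10277 and 13492 counts. The log2 difference was 0.29 (counting interval 0.26 to 0.33). Of the other E proteins, Tcf12 stood at 21.96 and 22.2 TPM and Tcf3 at 13.1 and 12.1 TPM, and the counting interval of their differences included 0. Tcf4 therefore made up 82.5% of E protein TPM in replicate 1 and 85.4% in replicate 2, with Tcf12 at 10.97% and 9.46% and Tcf3 at 6.52% and 5.15%. The mean log2 ratio of Tcf4 to Tcf12 was 3.04 ± 0.19, and that of Tcf4 to Tcf3 was 3.85 ± 0.28.

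Tcf4 is transcribed from many promoters, and its long products carry an additional activation domain that short ones lack. The annotation lists 62 Tcf4 transcripts, of which 18 were listed at 0 TPM in both libraries and 26 have a complete coding sequence. The 26 include 2 annotated as nonsense-mediated decay, Tcf4-255 and Tcf4-261. Distances below are from the first annotated start, and starts within 500 bases of each other were joined into 18 groups. A few groups held most of the TPM, and they lie in 3 regions of the gene. The first region spans the first 5.59 kb with 24 transcripts and coding sequences of up to 2076 bases. The second lies between 176.1 and 179.1 kb with coding sequences of up to 1623 bases, and the third between 249.6 and 250.8 kb with up to 1533 bases.

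By TPM no region dominated. The first region held 35.1% of Tcf4 TPM in replicate 1 and 34.9% in replicate 2, the second held 24.9% and 28.3%, and the third held 29.6% and 28.4%. Transcripts annotated as retained introns held 17.0% and 15.8% of Tcf4 TPM. In the third region, Tcf4-236, a retained intron of 373 bases, had 11.2 and 13.4 TPM of the region's 48.9 and 57.0 TPM. Shares by annotated start are therefore not measures of promoter use. Among transcripts with a complete coding sequence, which held 62.3% and 60.7% of Tcf4 TPM, the first region took 50.4% and 51.9%, the second 28.4% and 32.7%, and the third 15.2% and 12.1%. In the second table these shares were 52.2% and 55.1%, 23.1% and 17.9%, and 23.9% and 20.9%. The first region stayed ahead, while the order of the other regions turned. That turn rested on Tcf4-261, annotated as nonsense-mediated decay and counted in the region from 249.6 kb. Tcf4-261 had 10.1 and 9.48 TPM in the second table. Without it, the region from 176.1 kb was ahead of that from 249.6 kb in both tables and both libraries. By expected counts the order was much steeper, with 68.0% and 68.5% in the first region, 12.5% and 13.9% in the second and 12.6% and 11.99% in the third. Counts favour long transcripts, and TPM favours short ones to which few reads were assigned, so both are given. This count-based view was added after the data were seen.

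**Figure D3:**
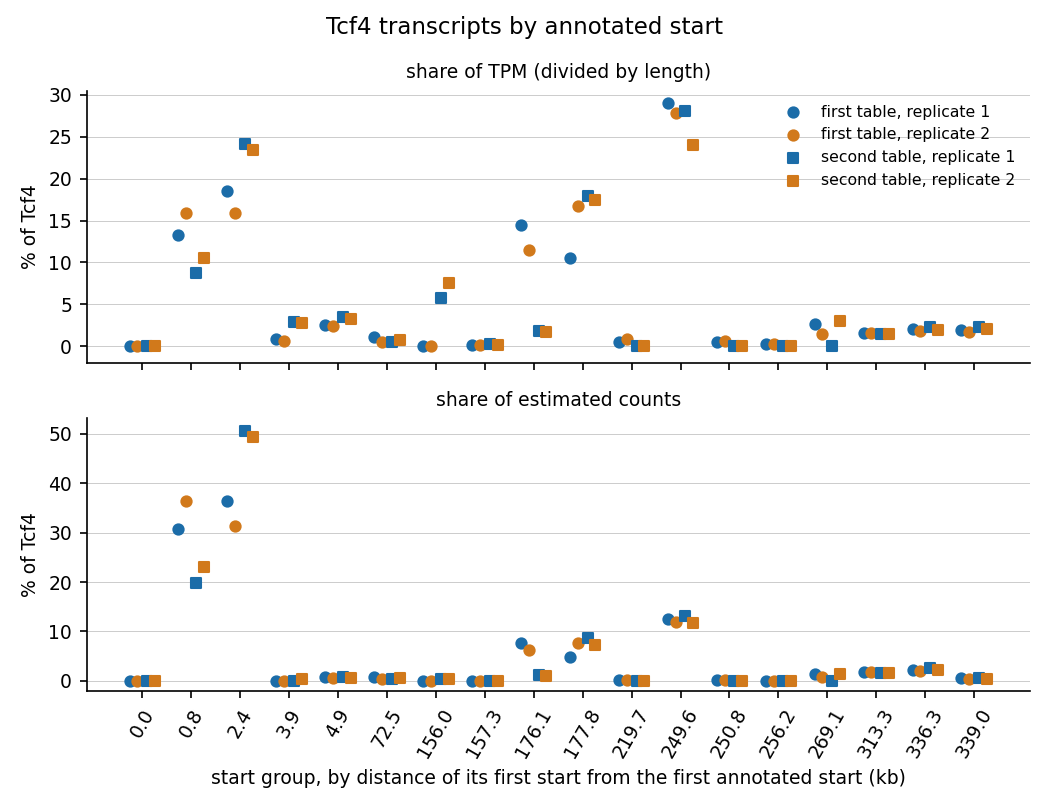
Percent of Tcf4 in each group of annotated starts, evenly spaced in order and named by distance in kb from the first annotated start, by TPM (top) and by expected counts (bottom), with circles for the first transcript table, squares for the second and colours for replicates 1 and 2. In the first table the group at 249.6 to 250.2 kb is highest by TPM (29.1% and 27.8%), whereas the groups within the first 3.00 kb are highest by counts (30.6% and 36.4%, then 36.5% and 31.4%).

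Within the first region the reads fell on a pair of starts. Tcf4-202, which starts at 2.36 kb, stood at 26.9 and 28.6 TPM. Tcf4-207, which starts at 1.13 kb, stood at 18.8 and 27.5 TPM. Each has 2010 coding bases in 20 exons. The group around Tcf4-207 held 13.3% and 15.9% of Tcf4 TPM, and the group around Tcf4-202 held 18.5% and 15.9%, so the Tcf4-202 group was ahead in replicate 1 and the groups were level in replicate 2. The second transcript table gave Tcf4-202 a level of 58.1 and 70.1 TPM and Tcf4-207 17.9 and 25.3 TPM, keeping Tcf4-202 ahead in both.

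Single transcripts in the second region could not be pinned down. Tcf4-234 stood at 17.8 and 12.8 TPM in the first table but at 0.05 and 0.38 TPM in the second. Tcf4-243, listed at 0.10 and 0 TPM in the first table, stood at 22.7 and 30.4 TPM in the second. These transcripts each have 1611 coding bases. Summed over the region the tables were closer, with 24.9% and 28.3% of Tcf4 in the first and 19.8% and 19.1% in the second. The tables thus differed less on region sums than on these single transcripts, whose shares are uncertain.

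Id proteins bind E proteins and keep them off DNA. Id2 is abundant in neurons as well as in progenitors, whereas Id3 and Id4 in cortex are known mainly from glia, vessels and progenitors. Id2 (ENSMUSG00000020644.9, chr12:25093799-25097140, minus strand) stood at 71.8 TPM in replicate 1 and 79.7 TPM in replicate 2. Id3 (ENSMUSG00000007872.3, chr4:136143497-136145755, plus strand) stood at 17.5 and 13.8 TPM. Id4 (ENSMUSG00000021379.2, chr13:48261228-48266026, plus strand) stood at 15.6 and 11.4 TPM. Id2 was thus the higher in replicate 2 and the other pair the higher in replicate 1. The log2 differences were 0.15 for Id2 (counting interval 0.05 to 0.24), -0.32 for Id3 (-0.54 to -0.10) and -0.45 for Id4 (-0.58 to -0.32).

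The opposite moves left the sum of the 3 Id levels level, at 104.9 TPM in replicate 1 and 104.8 TPM in replicate 2, while its makeup shifted towards Id2. With Id1 included, Id2 made up 60.4% and 70.1% of Id TPM, Id3 14.7% and 12.1%, Id4 13.1% and 10.03%, and Id1 11.8% and 7.80%. Id1, which is no member of the chosen set, was lower in replicate 2 as well, at 14.0 and 8.87 TPM (log2 difference -0.67, counting interval -0.98 to -0.37). The mean log2 ratio of Id2 to Id3 was 2.28 ± 0.35 and that of Id2 to Id4 was 2.50 ± 0.42. Id3 exceeded Id4 by 0.17 and 0.27 on the log2 scale of TPM (mean 0.22 ± 0.07). That order holds per length only: by expected counts, which are not divided by length, Id4 exceeded Id3 by a mean log2 ratio of -1.55 for Id3 over Id4.

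Summed over all its annotated transcripts, Tcf4 exceeded the summed Id2, Id3 and Id4 level in both libraries. The ratio was 1.57 in replicate 1 and 1.91 in replicate 2, a mean log2 ratio of 0.80 ± 0.20. These are levels of RNA in whole tissue, and protein and pairing were not measured. Transcripts with a complete coding sequence held 62.3% and 60.7% of the Tcf4 level, and a ratio limited to them was not computed. That class includes transcripts annotated as nonsense-mediated decay, which held 1.60% and 0% of Tcf4 TPM. The Id sum leaves out Id1 (14.0 and 8.87 TPM). Astrocyte markers went both ways, with 3 of 6 higher in replicate 2, a median log2 difference of -0.01 and summed levels of 1354 and 1397 TPM. Among them Gfap had a log2 difference of -0.35 (counting interval -0.43 to -0.26) and Slc1a2 one of 0.15 (0.14 to 0.16). The 3 oligodendrocyte precursor markers were all lower in replicate 2 (59.96 and 48.2 TPM in sum), as were the 4 myelinating oligodendrocyte markers (898.9 and 577.8 TPM). All 3 mural markers were higher in replicate 2 (96.1 and 106.7 TPM), and 3 of 4 endothelial markers were higher, although Slc2a1 was lower (log2 difference -0.20) and the endothelial sum was 120.7 and 114.4 TPM. The part of these cell classes in the Id3 and Id4 differences was not tested.

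The transcript tables disagreed on Id2. In the first table Id2-201, of 1270 bases, held 96.1% and 95.9% of the gene, and Id2-202, of 1969 bases, held 0.11% and 0.19%. In the second table Id2-202 held 52.6% and 51.0%, and Id2-201 held 44.4% and 46.0%. Id2-202 contains all 1270 bases of Id2-201 plus 699 more, and their coding sequence of 402 bases is the same, so the encoded protein does not depend on which table is used. The gene level does not turn on it much either: the second table gave 101.4 and 108.5 TPM, which is 1.41 and 1.36 times the first, whereas the median ratio over 12899 protein-coding genes was 1.56 and 1.54. Id3-201, with 357 coding bases, held 84.7% and 89.8% of Id3 in the first table and 90.8% and 93.4% in the second. Id4 has 1 transcript, of 483 coding bases. Antisense to Id4 lie A330033J07Rik, with 9.45 and 22.6 counts, and Gm49291, with 9.55 and 4.36 counts, against 1109 and 867 counts for Id4.

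Many other bHLH and Id genes were low in these libraries. Of the 32 on the list, 16 reached 1 TPM in both. Neurog2, the proneural gene upstream of the NeuroD factors in the embryonic cortex, stood at 0.17 and 0.16 TPM on 7 counts in each library. Neurog3 and Ptf1a had 0 counts in both libraries, which allows up to 3 counts, or 0.106 and 0.0972 CPM. The 4 muscle bHLH genes were at 0 or 1 count. Among Notch targets, Hey1 stood at 25.4 and 26.6 TPM, Hes1 at 7.78 and 8.33 TPM, and Hes5 at 24.3 and 14.9 TPM, lower in replicate 2 (log2 difference -0.60, counting interval -0.82 to -0.39). Olig1 and Olig2, of the oligodendrocyte lineage, stood at 55.3 and 45.0 TPM and at 14.3 and 11.95 TPM. Of the PAS group, Npas2 was highest at 21.2 and 24.8 TPM. The corepressors that bind E proteins, Cbfa2t2, Runx1t1 and Cbfa2t3, were all detected, and Cbfa2t3 was the one higher in replicate 2 (10.7 and 13.5 TPM, log2 difference 0.34).

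**Figure D4:**
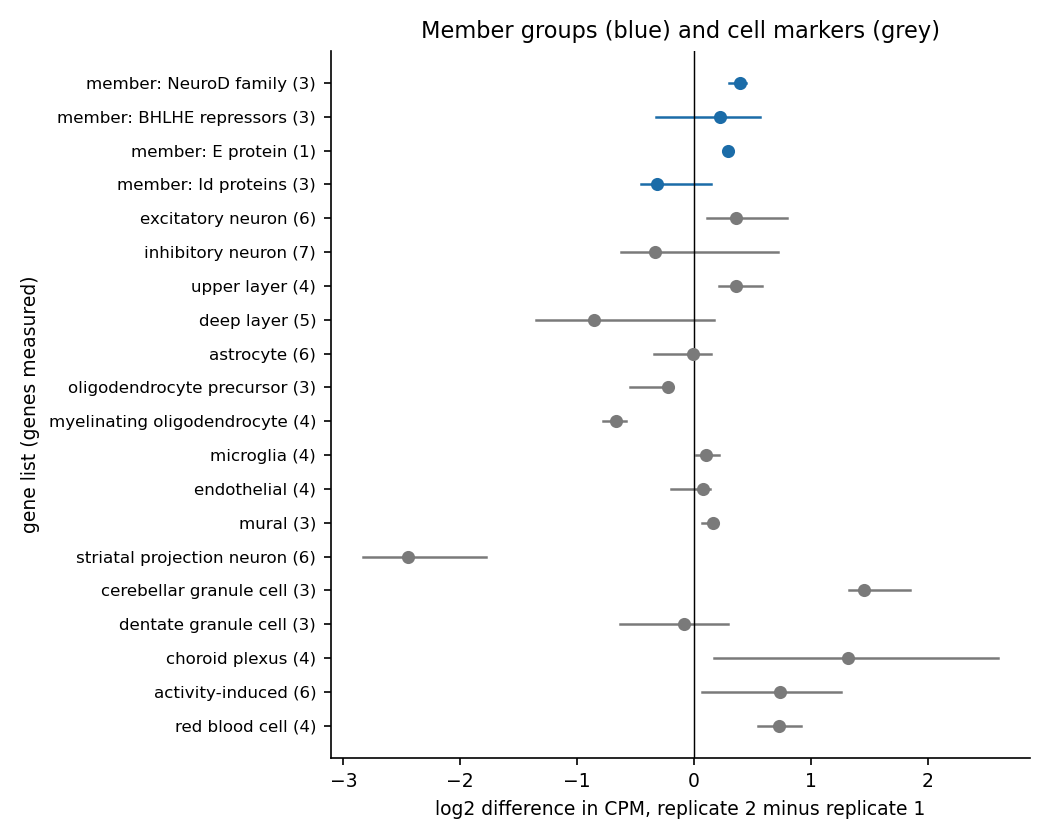
Log2 difference, replicate 2 minus replicate 1, of each gene list, with the dot at the median and the bar from the lowest to the highest gene, for the groups of members (blue) and the marker lists (grey), and the number of genes measured in parentheses. The excitatory neuron and activity-induced lists have medians of 0.36 and 0.74, and the striatal list a median of -2.44.

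Across all 10 members, 7 were higher and 3 lower in replicate 2, with a median log2 difference of 0.26. The median over all 18965 genes tested, those that reached 10 counts in either library, was -0.00034, and over the 20 measured of the 32 other bHLH and Id genes it was -0.15, with 9 higher and 11 lower. No member passed a 2-fold difference, a size that 3.94% of all genes tested passed, and none passed 1.5-fold, which 11% passed, so a count of 0 among 10 members is near the background. At 1.25-fold, a limit added after the values were seen, 5 members passed against 24.6% of all genes tested and 10.8% of the 12624 with a mean of at least 100 counts. These were Neurod1, Neurod6 and Bhlhe40 on the higher side (10.7% of genes) and Id4 and Bhlhe41 on the lower (13.9%). The counting interval excluded 0 for all 10 members, against 28.5% of all genes tested and 35.5% of those with a mean of at least 100 counts. All 10 members had a mean above 100 counts, so the shares among genes past that limit are the closer background. These genes are not matched to the members in depth, and a counting interval narrows as counts rise. Member counts ran from 311 for Id3 to 13492 for Tcf4, both in replicate 2.

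**Figure D5:**
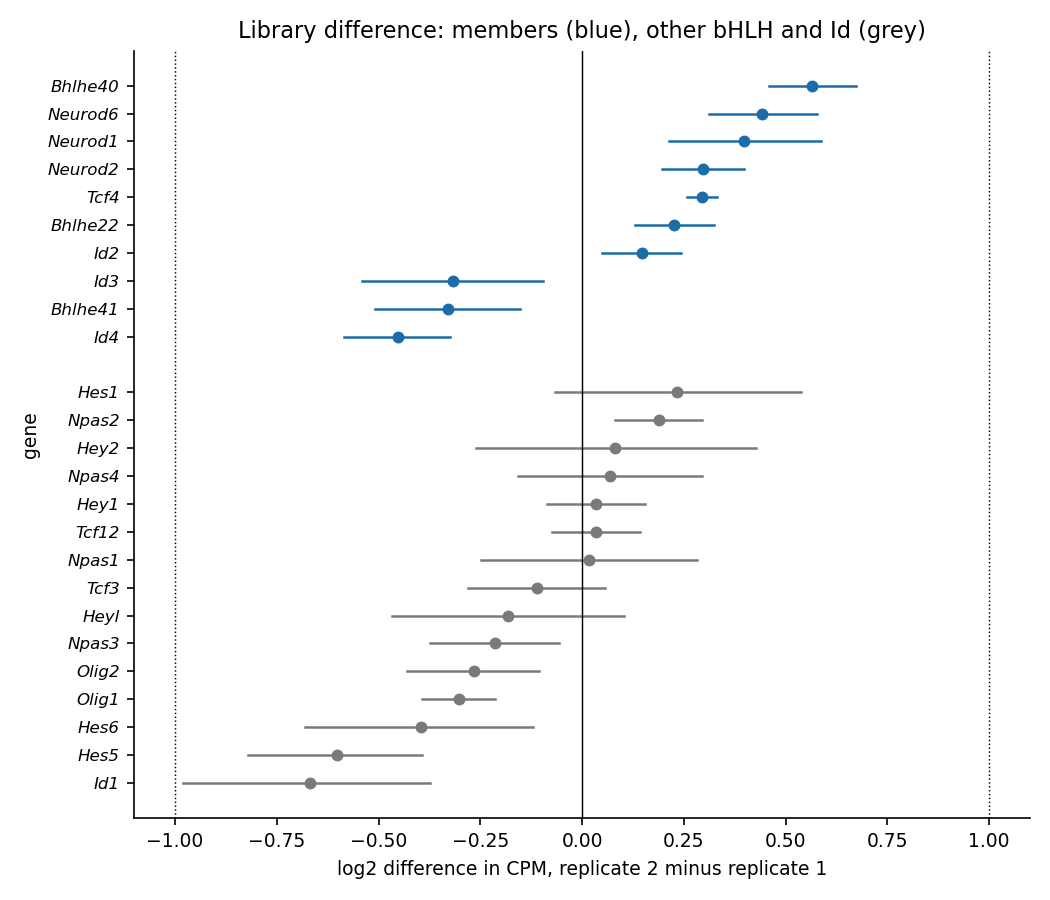
Log2 difference in CPM, replicate 2 minus replicate 1, of the members and of the other E protein, Id, Hes and Hey, oligodendrocyte and PAS bHLH genes detected in both libraries, with exact 95% counting intervals as bars and dotted lines at 2-fold. Bhlhe40 lies farthest to the higher side among members (0.57) and Id4 farthest to the lower (-0.45).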

How the data were processed

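Per the labels and the deposited description files, transcriptome alignments on mm10, annotated with GENCODE M21, gave 1 gene table and 1 transcript table per library, and the reads gave a second transcript table directly. The deposited expected counts are unnormalized estimates of reads and were rounded for edgeR. The deposited TPM values take every entry, also spike-ins, into their total, of which nuclear protein-coding genes held 46.4% and 46.9%. The deposited percent gives each transcript's share of its gene. The deposited bounds of the posterior mean TPM were used as a signal range in a plot only. Aligner, quantifiers, versions and strand use were not given in the sources used here, so overlapping and antisense genes may share reads. The reference is C57BL/6, and alignment of CAST alleles was not examined.

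Symbols and coordinates came from GENCODE M21, matched for all 55536 genes. Differences in log2 CPM (replicate 2 minus replicate 1) used edgeR 4.0.16 in R 4.3.3, with TMM and a prior count of 2, on genes that reached 10 counts in either library, with exact binomial 95% intervals that cover counting error only. DESeq2 1.42.0 gave alternative size factors. Pair ratios used TPM + 0.1, and a direction needed the same sign in both libraries and a mean above the SD. Other steps used Python 3.11.15, numpy 2.4.6, pandas 2.3.3 and scipy 1.17.1. The difference step was tested on simulated data.

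Members and lists were chosen with earlier results of these data known. All 10 members are named, and genes of the fixed lists are given by counts, with values where a result turns on them. No gene is named for a like pattern, since 2 libraries give only 1 difference. The 96 spike-in entries and 26248 entries named by a number were left out. No protein sequences and no Tcf4 sequence or coordinates are given. Of the other bHLH genes, 1 is not reported here.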

Additional observations from a re-analysis of the deposited data

How the results depend on the processing

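No paired analysis was possible because both libraries belong to 1 group. All 10 members kept a TPM of 1, 5 or 0.5 in both libraries and in the second transcript table, none passed 1.5-fold or 2-fold under any alternative run, and 7 stayed higher in replicate 2. Each member's log2 difference stayed within its counting interval under DESeq2 size factors, total counts, a prior count of 0.5 and the second table. The number of all genes past 2-fold depended on the filter on low counts, from 748 to 2297 with none and 103 with a mean of at least 100 counts. By expected counts the log2 ratio of Id3 to Id4 reversed to -1.55, since Id4 is the longer transcript. The share of the Tcf4 start group at 249.6 kb, 28.4% of TPM, was 17.0% with starts joined within 100 bases, 22.6% among protein-coding transcripts, 26.1% in the second table and 12.2% by expected counts (added after the data were seen), and 27.8% to 29.1% with either library left out. TPM values of all 10 members were higher when rescaled over nuclear protein-coding genes, a smaller total, and in the second table, where the cause was not tested, so levels hold within 1 table only. With 2 libraries of unstated origin, no difference can be told from technical spread.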
